A study of Mus musculus with 4 samples.

Results

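The regions described here are the NR2F1 CUT&Tag peaks at 10 genes of the Notch pathway in mouse hindbrain cells: the receptors Notch1, Notch2 and Notch3, the ligands Dll1, Dll3 and Jag1, the target genes Hes1 and Hes5, and the modulators Lfng and Nrarp. Peaks called in the 4 libraries were joined wherever they shared 1 bp or more, which gave 263639 regions, and those inside or within 20 kb of the gene bodies (protein-coding genes, mm10) were taken as members. There were 216 such member regions. Of these, 44 carried a called peak in all 4 libraries and reached 10 cut sites in 2 or more of them, as did 35770 regions over the whole genome, which are called the tested regions. Because a region enters only through a called peak, and the genes were chosen with results of these data in view, the levels below are a description. The difference between genotypes was not part of the rule.

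The study sought the cause of a hereditary facial paresis and described noncoding variants, duplications included, in regulatory elements near Gata2. The experiment used here asked whether NR2F1 binds such an element, cRE2, and whether the single-nucleotide Fam5 variant disturbs this binding. The paper reports normal facial motor nuclei and whisking in Fam5snv/snv mice. Motor neurons of rhombomere 4 (r4) were profiled at embryonic day 10.5 in WT;Isl1MN-GFP and Fam5snv/snv;Isl1MN-GFP embryos, so that every embryo carried the Isl1MN-GFP transgene, which marks motor neurons with GFP, and the mutant embryos were also homozygous for the Fam5 variant in element cRE2. Each genotype had 2 libraries, made from pools of 26 and 26 WT embryos and of 8 and 16 Fam5snv/snv embryos, and the labels call the tissue microdissected r4 with adjacent tissue. For this assay the paper's results describe the sorted cells as GFP-positive. Its general sorting methods lift the GFP gate at the end, to add GFP-negative cells and reach the cell number needed. They do not say whether this was done for the CUT&Tag libraries. The libraries may therefore not be pure motor neurons, and no cell types were separated here. Single-cell CUT&Tag directs a transposase to the antibody's target, and each library's value is the number of its cut sites in a called peak summed over its barcodes.

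The libraries held 1377 to 2740 barcodes and 3083946 to 10341894 cut sites, and the Fam5snv/snv libraries were deeper. WT replicate 1 stood apart: it had 42168 called peaks covering 31.0 Mb, against 137996 to 170993 peaks covering 93.1 to 143 Mb in the other 3 libraries. CPM relates the cut sites of a region to the library's cut sites in all tested regions, after TMM scaling. Across all tested regions the log2 CPM of the WT libraries correlated at 0.77 and that of the Fam5snv/snv libraries at 0.93. Pairs of libraries shared 3 to 12 barcode sequences, at most 0.799% of the smaller library. As a check of the labelled cells, Isl1, a motor neuron gene, averaged 20.7 CPM per kb over its promoter region, beside 22.6 at Nes, a neural progenitor gene, and 20.2 at Sox10, a neural crest and glia gene, so these levels do not single out motor neurons. The endothelial genes Cdh5, Kdr and Pecam1 had no tested promoter region. NR2F1 signal is no measure of expression, and 14 of 19 genes on the marker list, blood and mesenchyme genes included, had a tested promoter region.

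Notch signalling passes between touching cells. A Delta or Jagged ligand on one cell binds a Notch receptor on its neighbour, the receptor is cut by ADAM and gamma-secretase proteases, and its intracellular domain enters the nucleus, where it joins the DNA-binding protein RBPJ and the coactivators of the Mastermind family to switch on Hes and Hey repressors. In the developing hindbrain this keeps some cells as progenitors while their neighbours become neurons. NR2F1 (COUP-TFI) is an orphan nuclear receptor that binds AGGTCA half-sites, often as direct repeats with 1 base between the copies. RBPJ binds sites with the core GTGGGAA.

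The sequences below show NR2F1 half-sites inside the member regions. The 5 windows were taken outside annotated exons from the named regions of highest CPM per kb that held AGGTCA, at the copy nearest to the region's midpoint. All are written 5′ to 3′ on the plus strand of mm10 (GRCm38.p6), and the capitals TGACCT are AGGTCA on the other strand. The copy in the fourth intron of Jag1 (chr2:137100766-137100851) lay under a peak in all 4 libraries. So did the copy inside Lfng (chr5:140610580-140610665), 3.3 kb past its start. The copy in Notch1 (chr2:26503029-26503114) and that in Notch2 (chr3:98121489-98121574) lay under a peak in 3 libraries. In the Nrarp region (chr2:25175019-25175104) the copy followed directly on another, in lower case, in the opposite orientation, and 2 libraries had a peak there.
Jag1 intron: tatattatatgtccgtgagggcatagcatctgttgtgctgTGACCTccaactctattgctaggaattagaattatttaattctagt
Nrarp, 5.7 kb upstream: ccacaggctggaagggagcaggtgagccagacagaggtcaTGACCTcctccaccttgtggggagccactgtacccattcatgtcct
Lfng: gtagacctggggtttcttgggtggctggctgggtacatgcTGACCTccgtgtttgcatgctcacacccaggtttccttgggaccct
Notch1: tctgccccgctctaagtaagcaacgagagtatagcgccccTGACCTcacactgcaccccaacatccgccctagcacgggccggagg
Notch2 intron: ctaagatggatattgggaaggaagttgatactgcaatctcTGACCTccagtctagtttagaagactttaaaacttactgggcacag

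Another pair of windows, chosen after their values were seen, show the only direct repeat of AGGTCA with 1 base between the copies among the 44 regions and a half-site in the densest stretch upstream of Nrarp. The direct repeat lies in intron 18 of Notch2 (chr3:98121092-98121184, plus strand), where all 4 libraries had a peak. The Nrarp window (chr2:25169531-25169616, plus strand) lies 11.2 kb upstream of the transcription start site (TSS). The stretch around it that was under a peak in both WT libraries held 2 copies of AGGTCA in 4510 bp. The whole Nrarp region held 0.608 copies per kb, against 0.828 per kb over all tested regions.
Notch2 direct repeat: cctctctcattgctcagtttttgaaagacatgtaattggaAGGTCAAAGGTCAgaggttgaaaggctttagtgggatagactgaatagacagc
Nrarp, 11.2 kb upstream: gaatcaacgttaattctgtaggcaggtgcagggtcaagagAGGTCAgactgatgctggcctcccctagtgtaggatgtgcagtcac

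A half-site of this length is common in any sequence, so the counts are given beside those of all tested regions. AGGTCA, searched on both strands with overlaps allowed, occurred 147 times in 39 of the 44 regions, while 75.0% of all tested regions held it. Its rate was 0.790 copies per kb against 0.828 per kb over all tested regions. Within 250 bp of the midpoint it was found in 17 of 44 member regions (38.6%) and in 33.8% of all tested regions. The direct repeat with 1 base between the copies occurred once, and 1.93% of all tested regions held it. The RBPJ core GTGGGAA occurred 68 times in 26 of the 44 regions, while 40.3% of all tested regions held it. Its rate was 0.365 copies per kb against 0.251 per kb over all tested regions. Within 250 bp of the midpoint GTGGGAA was found in 6 of 44 member regions (13.6%) and in 11.2% of all tested regions. Hes5 had the highest rate, 15 copies over its 5 regions or 0.615 per kb, and Notch2 the lowest, 1 copy over 7 regions or 0.0624 per kb. These are matches of letters and not measured sites.

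RefSeq promoter windows (GRCm38.p6, 250 bases before to 50 bases after the start) were at hand for 9 of the 10 genes, all but Hes1. GTGGGAA was present in 6.38% of 32851 such windows in the genome and in those of Hes5 and Lfng, and AGGTCA was present in 16.3% and in 1 of the Dll1 windows. The matches are shown with 10 bases on either side, on the strand of the gene: Hes5 at 83 bases (chr4:154960830-154960856) and at 226 bases (chr4:154960687-154960713, in reverse as TTCCCAC) before the start, Lfng at 109 bases (chr5:140607222-140607248) and Dll1 at 109 bases (chr17:15375917-15375942, minus strand). The first Hes5 match and the Dll1 match lie within an annotated exon. These distances are from the RefSeq start. For Dll1 that start (chr17:15375823) lies past the principal TSS (chr17:15375976, minus strand), and so does the match.
Hes5, 83 bases: gccgccgagtGTGGGAAcggccgcggc
Hes5, 226 bases: ggcgagcgcgTTCCCACagcccggaca
Lfng, 109 bases: cgtatcccacGTGGGAAggagagatct
Dll1, 109 bases: tgaccagggcAGGTCAcgggagagca

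All 10 genes had a tested region over their promoter (within 1 kb of a protein-coding TSS), and at Nrarp, Dll1 and Hes1 that region held at least 72.0% of the gene's cut sites in every library. The sum per region is given in CPM. Because wide regions collect more cut sites, genes are compared only per kb of the peak called in each library. The 34 other regions comprised 15 in introns, 2 over exons, 11 between genes and 6 over the promoters of neighbouring genes.

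Nrarp encodes an ankyrin-repeat protein that is switched on by Notch and turns the Notch intracellular domain down. Its promoter region (chr2:25163095-25187781) held 549 and 433 CPM in WT against 438 and 389 CPM in Fam5snv/snv, rank 11 by mean CPM of the 35770 tested regions. It was also 24.7 kb wide, rank 6 by width. The genotypes overlapped, with WT replicate 1 the highest and Fam5snv/snv replicate 2 the lowest, and the log2 difference (Fam5snv/snv minus WT) was -0.25 ± 0.26 (SE, n = 2 libraries each, edgeR quasi-likelihood adjusted p = 0.768). Nearly all cut sites near the gene lay in this region, between 93.1% and 97.5% in each library.

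The peaks in the Nrarp region were not centred on the TSS. In WT replicate 1 the peak from 13.2 to 8.69 kb upstream held 824 cut sites, 52.6% of the region, and the matching peak of WT replicate 2 held 613, or 49.8%. No annotated gene of any type overlapped the stretch that both peaks covered (chr2:25167556-25172065). The peak over the TSS held 17.1% and 23.1%, and a peak past the end of the gene, reaching to 6.21 kb downstream of the TSS in WT replicate 2, held 24.4% and 23.0%. Per kb the upstream peak had 64.0 and 41.4 CPM, the downstream peak 70.1 and 42.1 CPM and the TSS peak 40.5 and 18.3 CPM in WT replicates 1 and 2. In the Fam5snv/snv libraries the peaks were fused into wider ones. Peaks that ended 7.44 kb (replicate 1) and 4.56 kb (replicate 2) upstream of the TSS held 48.1% and 52.7% of the region there.

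**Figure D1:**
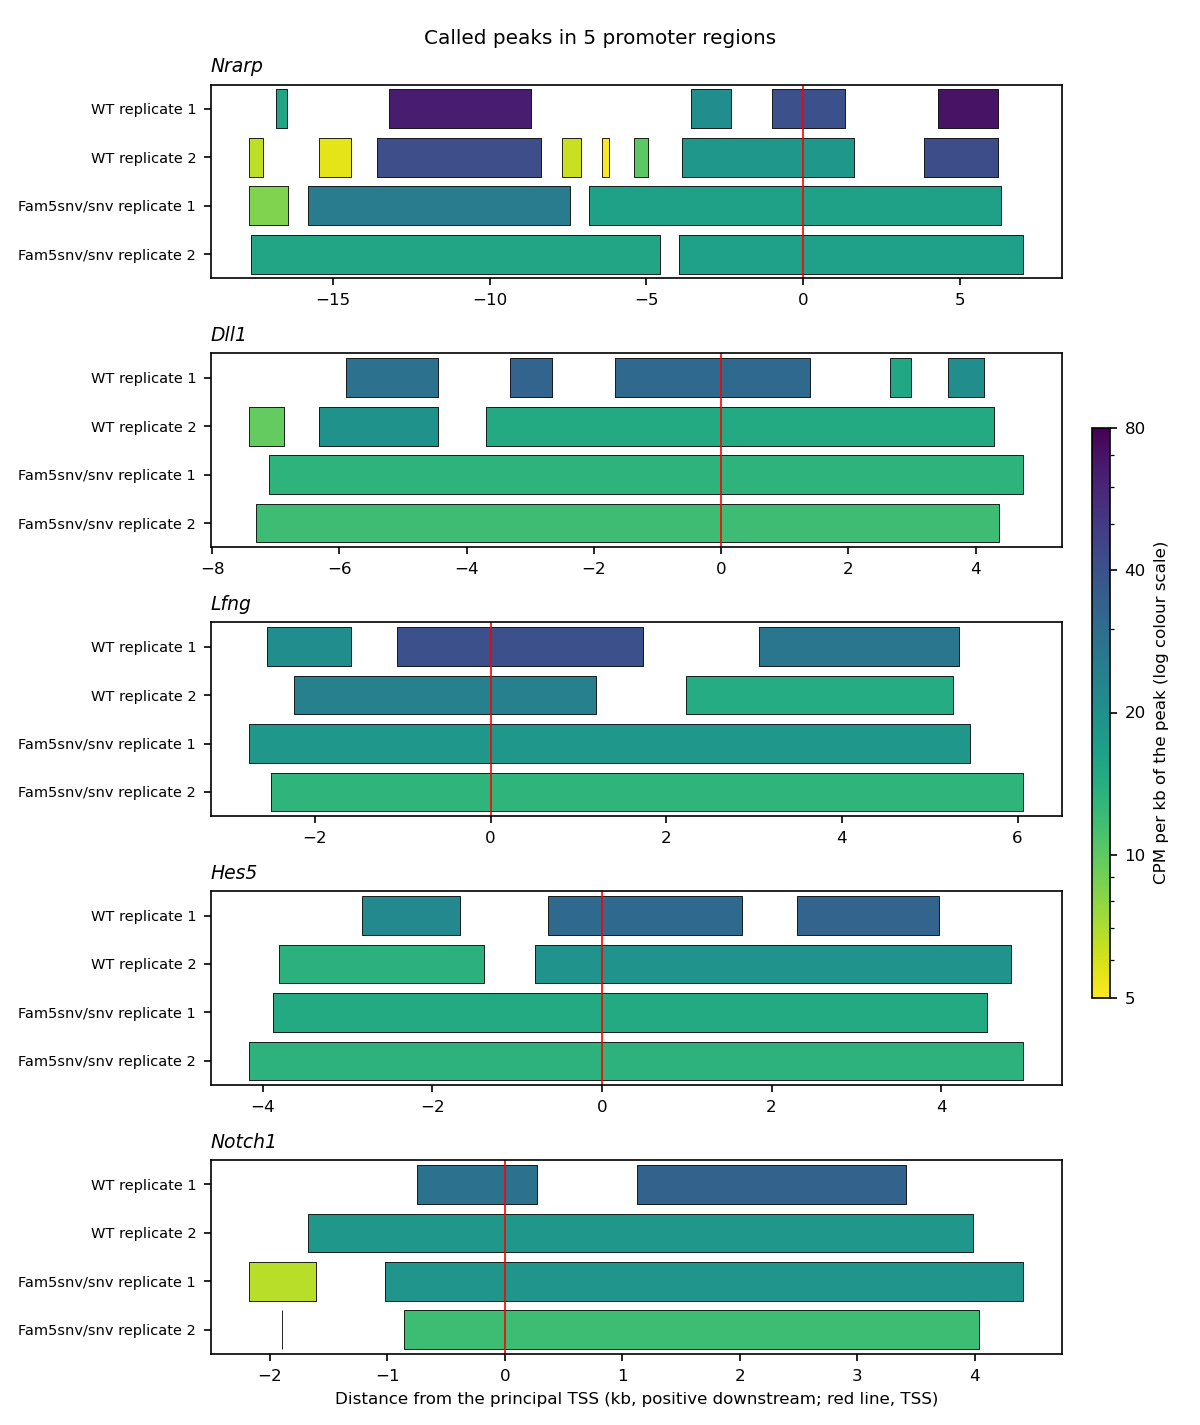
Called peaks in the promoter regions of Nrarp, Dll1, Lfng, Hes5 and Notch1, by distance from the principal TSS in kb, with 1 row for each of the 4 libraries and colour for CPM per kb of the peak on a log scale. WT replicate 1 split each region into separate peaks, and at Nrarp its densest peaks lay upstream and downstream of the TSS with 64.0 and 70.1 CPM per kb.

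Lfng encodes the Lunatic fringe glycosyltransferase, which adds sugars to Notch receptors and shifts their preference among ligands. Its promoter region (chr5:140604574-140613385) held 195 and 127 CPM in WT against 152 and 113 CPM in Fam5snv/snv. WT replicate 1 was the highest and WT replicate 2 lay between the Fam5snv/snv values. The log2 difference was -0.28 ± 0.28 (edgeR adjusted p = 0.757). A separate peak inside the gene, which started 3.06 kb past the TSS in WT replicate 1, held 31.2% of that library's cut sites in the region, and the matching peak in WT replicate 2 held 34.5%. Another region began inside the gene and ran past its end, with its midpoint between genes, 12.4 kb past the TSS. It held 33.6 and 45.4 CPM in WT against 43.3 and 75.2 CPM in Fam5snv/snv. Only Fam5snv/snv replicate 2 stood above both WT libraries there (log2 difference 0.59 ± 0.32, edgeR adjusted p = 0.607).

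Dll1 is the Delta ligand used by newborn neurons to inhibit their neighbours. Its promoter region (chr17:15371228-15383392) held 175 and 161 CPM in WT against 157 and 138 CPM in Fam5snv/snv. Both Fam5snv/snv libraries were below both WT libraries, by less than the error of the difference (-0.18 ± 0.21 log2, edgeR adjusted p = 0.796). The TSS peak of WT replicate 1 held 54.6% of the region. An upstream peak from 5.89 to 4.46 kb before the TSS in that library, over no annotated gene in the stretch shared with WT replicate 2 (chr17:15380433-15381866), held 23.4%, and its counterpart in WT replicate 2 held 23.0%.

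Jag1 encodes a Jagged-class ligand. Its promoter region (chr2:137113427-137117991) held 64.1 and 73.9 CPM in WT against 59.1 and 50.7 CPM in Fam5snv/snv, again without overlap between genotypes (-0.33 ± 0.21 log2, edgeR adjusted p = 0.634). The region centred 15.4 kb inside the gene, in intron 4 of 25 (chr2:137100503-137102036), held 56.4 and 51.3 CPM in WT against 48.8 and 37.2 CPM in Fam5snv/snv, and its genotypes did not overlap either (-0.33 ± 0.23, adjusted p = 0.656). This intronic region was much narrower than the promoter region. Per kb of called peak it held 65.1, 36.8, 41.1 and 24.2 CPM in WT replicates 1 and 2 and Fam5snv/snv replicates 1 and 2, above the Jag1 promoter region in every library (23.0, 17.4, 12.97 and 11.8 CPM). With a mean of 41.8 CPM per kb it was the densest member region outside promoters, rank 1070 of 35770. The window printed above for Jag1 lies in it. An intergenic region 36.7 kb past the TSS held 9.46 and 4.22 CPM in WT against 14.5 and 13.4 CPM in Fam5snv/snv, with both mutant libraries higher (1.02 ± 0.52, adjusted p = 0.596).

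Dll3 is a divergent Delta family member that acts inside the cell rather than as a surface ligand. Its promoter region (chr7:28301114-28303980) held 20.3 and 33.1 CPM in WT against 36.9 and 24.3 CPM in Fam5snv/snv, and the genotypes overlapped (0.20 ± 0.34, edgeR adjusted p = 0.871). An intronic region centred 2.68 kb past the TSS held 9.46 and 18.3 CPM in WT against 20.4 and 22.6 CPM in Fam5snv/snv, with both mutant libraries higher (0.63 ± 0.40, adjusted p = 0.637).

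Notch1 encodes a receptor. Its promoter region (chr2:26499408-26505996) held 106 and 103 CPM in WT against 106 and 58.8 CPM in Fam5snv/snv, so that a single mutant library was low and the others lay within 4 CPM of each other (-0.34 ± 0.30, edgeR adjusted p = 0.726). In WT replicate 1 the larger peak lay inside the gene, from 1.13 to 3.42 kb past the TSS, with 72.7% of the cut sites, and the TSS peak held 27.3%. A region in intron 2 of 33, centred 15.5 kb past the TSS, held 65.2 and 81.6 CPM in WT against 60.6 and 55.1 CPM in Fam5snv/snv, with both mutant libraries lower (-0.34 ± 0.21, adjusted p = 0.631). An intergenic region 30.7 kb upstream held 6.31 and 6.68 CPM in WT against 10.1 and 16.6 CPM in Fam5snv/snv, with both mutant libraries higher (1.04 ± 0.49, adjusted p = 0.589).

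Notch2 and Notch3 are further receptors of the family. The Notch2 promoter region (chr3:98013021-98014370) held 18.2 and 22.2 CPM in WT against 15.2 and 13.7 CPM in Fam5snv/snv, and both mutant libraries were lower (-0.49 ± 0.33, edgeR adjusted p = 0.653). It took 28.1% of the cut sites at Notch2 in WT replicate 1 and 7.80% to 11.2% in the other libraries, and 6 tested intronic regions and 43 untested regions carried the rest. The intronic region of Notch2 with the most CPM, in intron 18 of 33 and 108 kb past the TSS, holds the direct repeat printed above. Its WT libraries stood at 22.4 and 38.0 CPM and its Fam5snv/snv libraries at 28.0 and 28.3 CPM, with the mutant libraries between the WT libraries (-0.10 ± 0.31, adjusted p = 0.931). Notch3 (chr17:32163789-32167234) held 19.6 and 24.3 CPM in WT against 32.8 and 23.5 CPM in Fam5snv/snv (0.36 ± 0.30, adjusted p = 0.711), and in WT replicate 1 its only peak there began 0.511 kb past the TSS. An intergenic region 53.0 kb past the Notch3 TSS held 24.9 and 21.5 CPM in WT against 14.6 and 15.9 CPM in Fam5snv/snv, with both mutant libraries lower (-0.60 ± 0.31, adjusted p = 0.598).

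Hes1 and Hes5 encode the repressors through which Notch holds neural progenitors undifferentiated. The Hes5 promoter region (chr4:154956765-154965892) also covers the promoter of its neighbour Pank4. It held 152 and 142 CPM in WT against 125 and 123 CPM in Fam5snv/snv, with no overlap between genotypes (-0.25 ± 0.20, edgeR adjusted p = 0.700). In WT replicate 1 it split into a peak over the Hes5 TSS with 47.1% of the cut sites, a peak over Pank4 with 36.3% and an upstream peak with 16.6%. A region 9.12 kb upstream held 24.2 and 34.5 CPM in WT against 42.2 and 38.3 CPM in Fam5snv/snv, in the opposite direction (0.46 ± 0.26, adjusted p = 0.616). A region 23.2 kb past the TSS, over an exon of the neighbour Plch2, held 32.6 and 43.3 CPM in WT against 28.4 and 35.3 CPM in Fam5snv/snv and overlapped (-0.25 ± 0.26, adjusted p = 0.765). Hes1 had 1 tested region of its 10 (chr16:30062045-30071014), with 63.8 and 97.8 CPM in WT against 81.2 and 70.6 CPM in Fam5snv/snv. The mutant libraries lay between the WT libraries (-0.09 ± 0.25, adjusted p = 0.924). Its main WT peak lay just upstream of the TSS, from 2.31 kb before it to 0.012 kb past it in WT replicate 1, with 80.8% of the region.

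**Figure D2:**
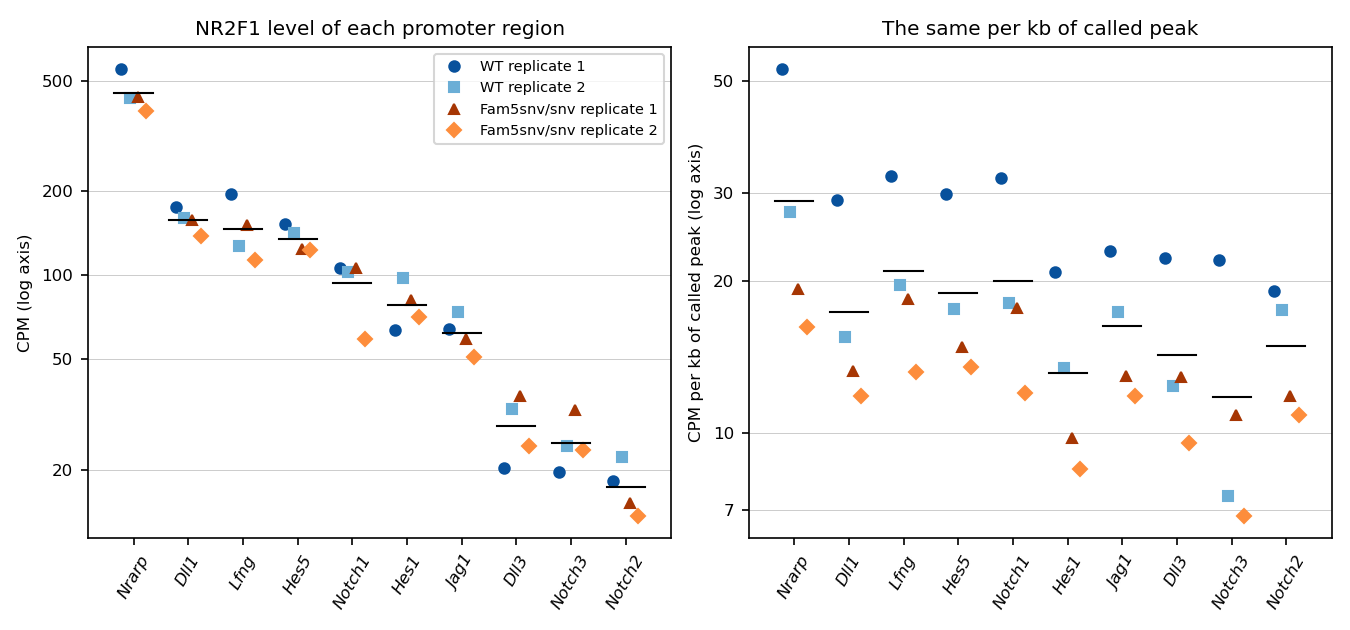
NR2F1 level of the 10 promoter regions in each library as CPM (left) and as CPM per kb of called peak (right), both on log axes, with a bar at the mean of the 4 libraries. Per kb the mean is highest at Nrarp, and WT replicate 1 is the highest library at all 10 genes.

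Per kb of called peak, the promoter regions were ordered Nrarp (mean of 4 libraries 28.9 CPM per kb), Lfng (20.9), Notch1 (19.996), Hes5 (18.9), Dll1 (17.4), Jag1 (16.3), Notch2 (14.8), Dll3 (14.3), Hes1 (13.1) and Notch3 (11.8). The ranges of all neighbours in this order overlapped over the 4 libraries, while within each of the 4 Nrarp was above Lfng, Lfng above Notch1 and Hes5 above Dll1. The median percentile of the 10 among 12647 tested promoter regions was 90.3 by CPM and 45.4 by CPM per kb. Nrarp stood at percentile 80.8 per kb. Their median width was 7.70 kb, against 2.24 kb for the 15 intronic member regions.

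**Figure D3:**
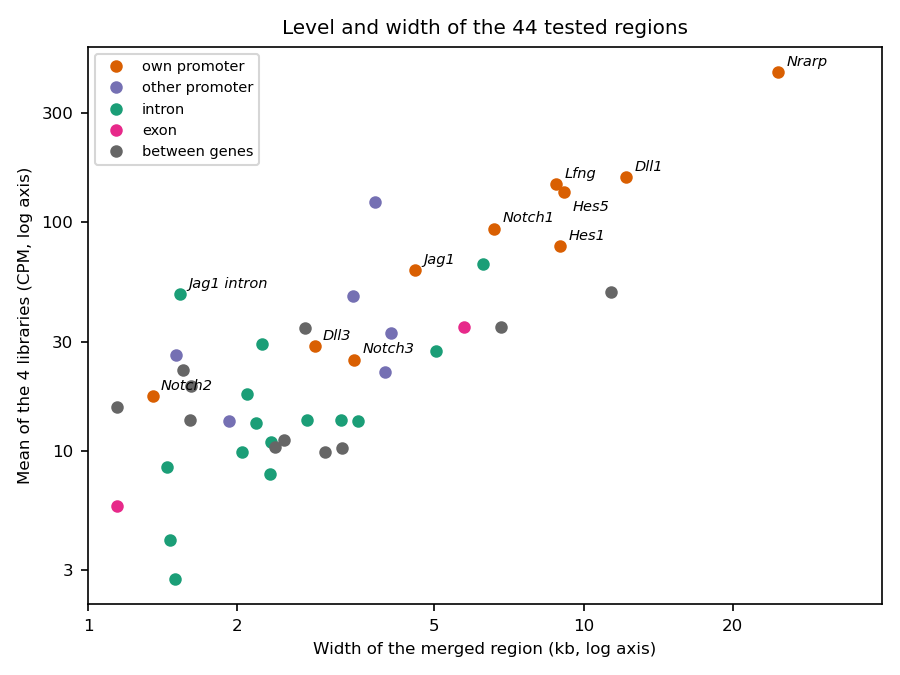
Mean CPM of the 4 libraries against the width of the merged region in kb for the 44 tested regions, both on log axes, coloured by annotation. The promoter regions of Nrarp, Dll1, Lfng, Hes5 and Hes1 are among the widest, and the Jag1 intron, with 48.4 CPM in 1.53 kb, lies above other regions of its width.

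Between genotypes, 22 of the 44 member regions were higher and 22 lower in Fam5snv/snv (51.7% and 48.3% of all tested regions), with a median log2 difference of 0.05 against 0.02 over all tested regions. With edgeR's quasi-likelihood test none passed an adjusted p of 0.05 (lowest 0.573), and none of the 35770 regions did (0.0%). At an unadjusted p under 0.05, no member region was higher (background 5.29%) and 2 were lower (background 3.37%), and with DESeq2 the unadjusted counts were also 0 and 2 (background 7.0% and 6.91%) with none past the adjusted threshold (lowest 0.0655, background 1.02% higher and 0.542% lower). Both were promoters of neighbouring genes: that of Timm50, a mitochondrial import subunit, next to Dll3, and that of Sec16a, an organiser of endoplasmic reticulum exit sites, next to Notch1. The Timm50 region held 57.1 and 60.1 CPM in WT against 39.4 and 34.3 CPM in Fam5snv/snv (-0.67 ± 0.20 log2, adjusted p = 0.573). The Sec16a region held 143 and 147 CPM in WT against 111 and 89.6 CPM in Fam5snv/snv (-0.53 ± 0.21, adjusted p = 0.573).

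Both mutant libraries lay above both WT libraries at 8 member regions (23.2% of all tested regions did so) and below them at 10 (21.4% of all), and 26 overlapped. The own promoters leaned lower, 8 of 10, with a median of -0.25. Tested promoter regions in general did the same: 70.0% were lower, with a median of -0.21, while 63.5% of the regions outside promoters were higher. Dll1, Jag1, Hes5 and Notch2 were the 4 promoters of 10 whose mutant libraries both lay below WT, against 37.8% of all tested promoter regions. The direction depends on the peaks asked for and on the scaling. With a peak in at least 2 libraries, 60 of 92 member regions were higher and 32 lower (median 0.46, all regions so tested 0.61). Scaled by the number of barcodes, all 44 were higher (median 0.87, all regions 0.97), and per kb of called peak all 44 were lower (median -0.75, all regions -0.76), so that the members' median stayed within 0.1 of the median of all regions on each of the 3 scales. Depth was higher and called peaks were wider in the Fam5snv/snv libraries. The part of depth and peak width in these differences cannot be told apart from genotype.

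The adjusted calls depended on which WT libraries were in the fit. Without WT replicate 2, the same test passed 9 member regions at an adjusted p under 0.05, 6 higher and 3 lower (background 11.4% and 6.21%), among them the promoter regions of Nrarp (-0.41, adjusted p = 0.0160) and Lfng (-0.56, adjusted p = 0.0250), the intron of Dll3 (1.18, adjusted p = 0.0418) and the Sec16a promoter (-0.51, adjusted p = 0.0408). That fit compares WT replicate 1, the library that stood apart, with the Fam5snv/snv pair and takes its spread from them. Without WT replicate 1 none passed (lowest adjusted p 0.0564, background 4.17% higher and 1.17% lower), and the log2 difference of the Lfng promoter was then 0.05. With 2 libraries a genotype, the smallest exact permutation p for a single region is 0.333, and the libraries are pools of embryos, so the p-values measure only the spread between these pools.

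**Figure D4:**
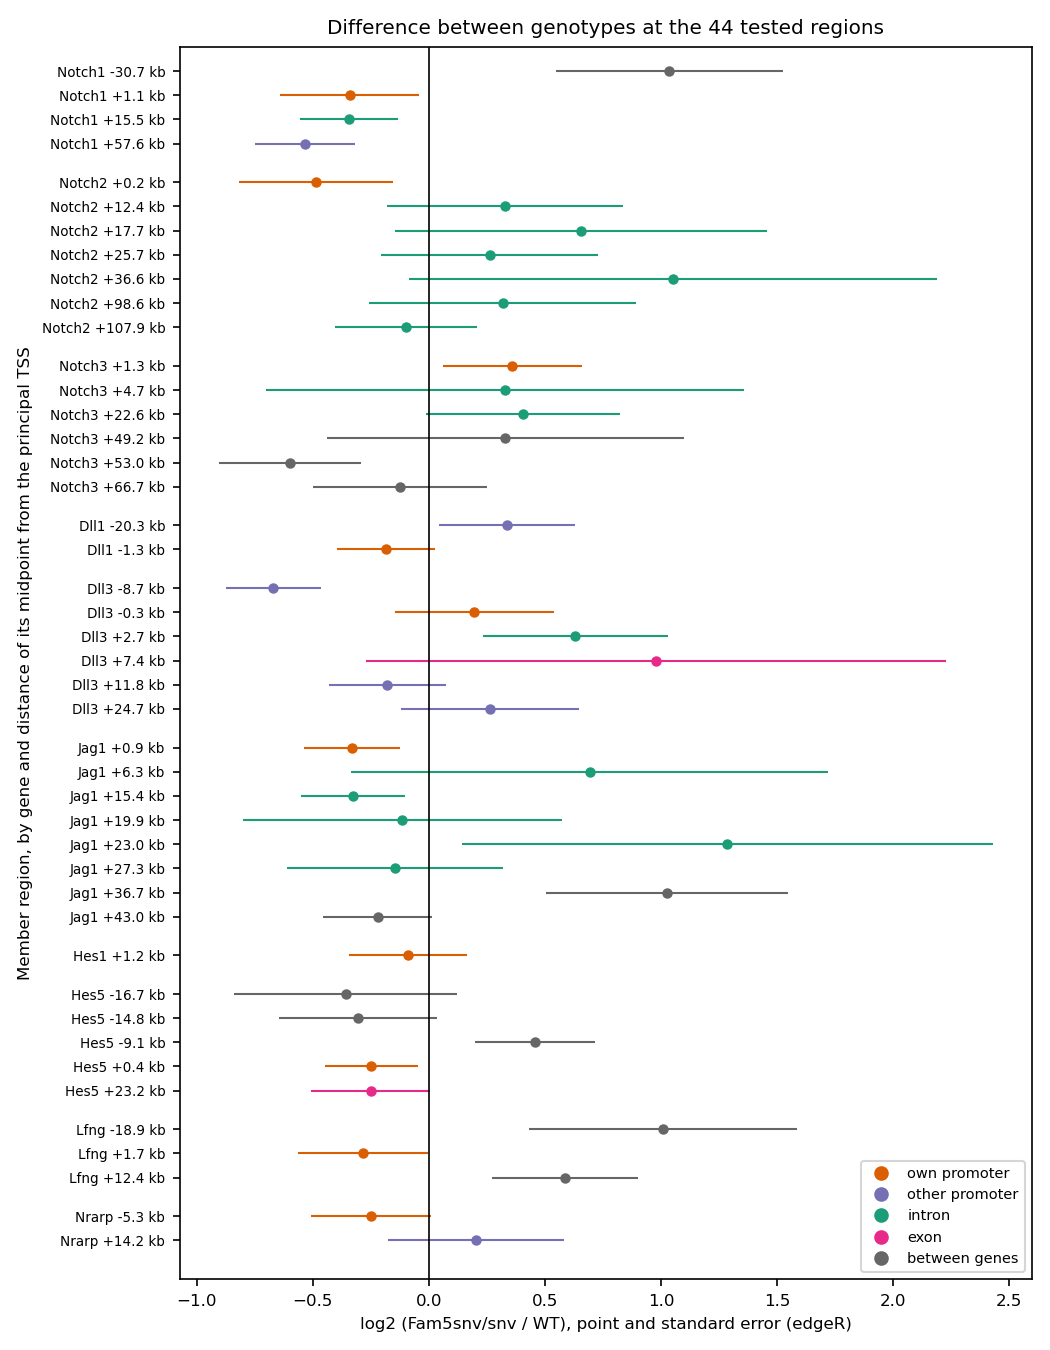
Log2 difference between Fam5snv/snv and WT at the 44 tested member regions, with the edgeR standard error as the bar, grouped by gene, ordered by distance from the principal TSS and coloured by annotation. Points lie on both sides of 0, from -0.67 at the Timm50 promoter near Dll3 to 1.29 in a Jag1 intron, and own promoters lie mostly to the left.

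Of 37 other Notch pathway genes, 35 had a tested promoter region, and 10 were higher and 25 lower in Fam5snv/snv, with a median of -0.28 log2. Of all tested promoter regions 70.0% were lower, with a median of -0.21. None passed the adjusted threshold in edgeR (lowest 0.573), and 1 was higher and 3 lower at an unadjusted p under 0.05 (background among promoter regions 1.54% and 6.7%). Jag2, a Jagged ligand, held 59.9 and 51.3 CPM in WT against 81.2 and 75.7 CPM in Fam5snv/snv (0.50 ± 0.20 log2, adjusted p = 0.574). The region of Dll4, the Delta ligand best known from vessels, held 71.1 and 83.4 CPM in WT against 55.4 and 49.6 CPM in Fam5snv/snv (-0.56 ± 0.20). Rbpj, the DNA-binding partner of the Notch intracellular domain, held 171 and 149 CPM in WT against 109 and 108 CPM in Fam5snv/snv (-0.56 ± 0.21). The Hes7 region, which also covers the promoters of Aloxe3 and 9130213A22Rik, held 228 and 239 CPM in WT against 166 and 159 CPM in Fam5snv/snv (-0.52 ± 0.21). At each of these 4 the genotypes did not overlap. The next higher promoters by p, of Dtx1 and Poglut1, had log2 differences of 0.88 ± 0.37 and 1.35 ± 0.63.

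A further 172 member regions lacked a peak in at least 1 library. A peak was present in 3 libraries at 37, in 2 at 31 and in 1 at 104 regions. WT replicate 1 had a peak in none of these 172. At 37 regions all 3 other libraries had one (17.1% of the 216 member regions, against 12.3% of all merged regions), and at 17 only the Fam5snv/snv pair did (7.87% against 8.79%). Peaks of 1 library alone made up 43 regions in Fam5snv/snv replicate 2 (19.9% against 24.3%), 34 in Fam5snv/snv replicate 1 (15.7% against 12.5%) and 27 in WT replicate 2 (12.5% against 21.9%). WT replicate 2 shared a further 10 with Fam5snv/snv replicate 2 alone and 4 with Fam5snv/snv replicate 1 alone (4.63% and 1.85%, against 4.25% and 1.79%). The share of member regions with a peak in every library was 20.4%, against 13.6% of all merged regions. A peak missing from WT replicate 1 cannot be read as a difference between genotypes, since that library had the fewest peaks of the 4.

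Per barcode the signal was sparse. At least 1 member cut site was found in 59.8% and 81.9% of barcodes in WT and in 88.4% and 89.3% in Fam5snv/snv, in the order of the cut sites per barcode (medians 879, 1867, 2694 and 2984). Each barcode was therefore thinned to 567 cut sites, which left out 641 barcodes of WT replicate 1 and none elsewhere. A cut site in the Nrarp promoter region was then found in 17.2% of the barcodes of WT replicate 1 (95% exact binomial interval 15.5% to 19.0%), 16.0% of WT replicate 2 (14.1% to 18.1%), 15.9% of Fam5snv/snv replicate 1 (14.4% to 17.4%) and 13.4% of Fam5snv/snv replicate 2 (12.1% to 14.7%). Before thinning the shares were 22.6%, 31.5%, 39.7% and 35.5%. Lfng gave 6.84%, 5.16%, 5.63% and 3.72%, Dll1 6.06%, 5.45%, 5.94% and 5.47%, and Hes5 4.97%, 4.87%, 4.40% and 4.34%. At Dll3, Notch3 and Notch2 the share was at most 1.41% in any library. Intervals cover counting error only, and most stored counts were even (76.3% to 81.1%), so cut sites often come in pairs and are not independent. In WT replicate 1, 99.5% of the cut sites lay in tested regions, against 74.1% to 79.9% in the other libraries, so equal thinning does not make the libraries fully alike.

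**Figure D5:**
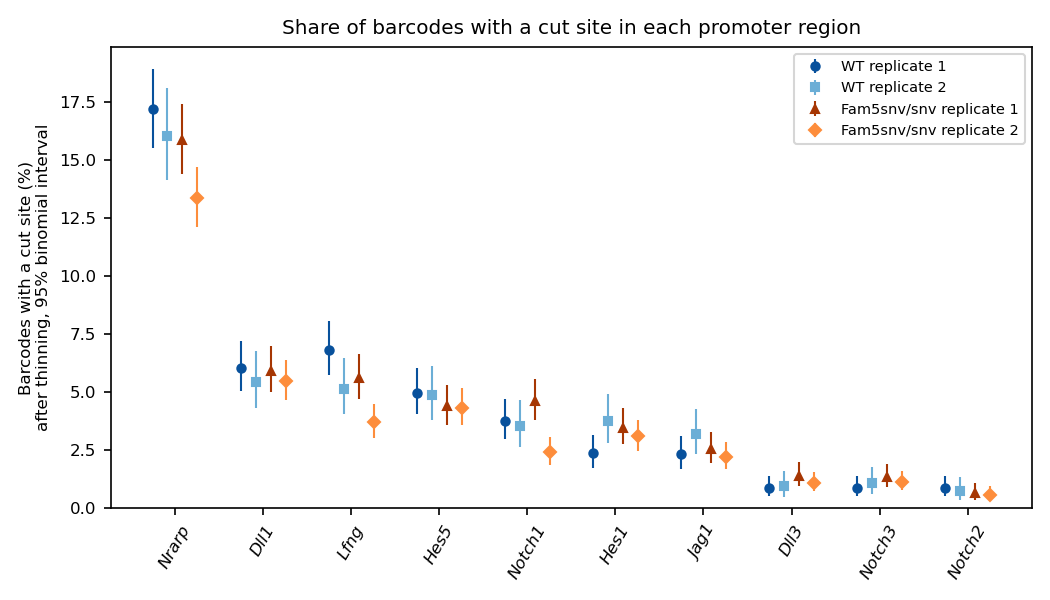
Share of barcodes with at least 1 cut site in each promoter region after thinning every barcode to 567 cut sites, per library, with 95% exact binomial intervals. Nrarp, whose region is the widest of the 10, stands at 13.4% to 17.2%.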

How the data were processed

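Anti-NR2F1 single-cell CUT&Tag was available for 2 WT and 2 Fam5snv/snv libraries. The authors deposited for each library its cell barcodes, its peaks (positions only) and a matrix of raw counts, in which a value is the number of cut sites of 1 barcode in 1 peak. Cell Ranger ATAC is named in the submitters' processing notes, the methods give version 2.0.0 on mm10, and the matrix headers carry software version 1.2.0. Peaks and cells were called per library, so a library with wider peaks collects more cut sites. No doublet caller was run.

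Peaks were merged (1 bp overlap), counts summed over barcodes, and regions annotated with GENCODE M21. A promoter region lies within 1 kb of a protein-coding TSS. Distances are from the principal TSS, except in the RefSeq promoter windows, where they are from the RefSeq start. Regions with a peak in all 4 libraries and 10 or more cut sites in 2 or more were tested with edgeR 4.0.16 (TMM, quasi-likelihood, no replicate block, 2 residual degrees of freedom, Benjamini-Hochberg over all 35770 regions), first tested on simulated data. Errors are model standard errors. DESeq2 1.42.0, R 4.3.3, Python 3.11.15 and pysam 0.24.0 were also used. The common biological coefficient of variation was 0.305.

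The members, pathway genes and markers were chosen with earlier results of these data known. Named regions are each gene's promoter region, its region of highest CPM outside promoters, and the 3 regions of smallest p in each direction, and for the pathway genes the 3 of smallest p in each direction. The Hes5 region 9.12 kb upstream, the Notch2 direct repeat and the stretches upstream of Nrarp and Dll1 were added after their values were seen. No control-antibody library was analysed here.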

Additional observations from a re-analysis of the deposited data

How the results depend on the processing

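Of the 21 named log2 differences, all kept their sign with DESeq2 size factors, with the DESeq2 Wald test, without a filter on cut sites, with at least 50 cut sites in 2 libraries, and with a peak in at least 2 libraries, and none passed the adjusted threshold there. The replicate block was one more such fit: the numbers do not pair the samples (correlation of deviations 0.0292), and with the replicate block 1 member region was higher and 2 were lower at an unadjusted p under 0.05, against 0 and 2 without it (4.67% and 2.70% of all tested regions with the block). Leaving out 1 library in turn gave 0 to 9 adjusted calls among the members, 0 to 13 higher and 0 to 5 lower at an unadjusted p under 0.05. The 9 and the 13 came without WT replicate 2 (18.7% of all tested regions were then higher unadjusted), and the 5 without WT replicate 1 (8.17% lower). With a peak in at least 2 libraries, 92 member regions gave 12 higher and 1 lower (20.5% and 1.32% of all regions so tested). Scaling by barcodes gave 8 higher and 0 lower (24.3% and 0.0% of all), and counting per kb gave 0 higher and 7 lower (0.0112% and 12.7% of all). Asking each library to cover at least 50% of a region left 9 member regions, with 0 higher and 0 lower (6.54% and 3.35% of all 8900 regions so tested). None of the 9 passed the adjusted threshold, against 0.157% higher and 0.0449% lower of those 8900 regions.

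Scaled by barcodes, log2 differences changed sign, to 0.42 at Sec16a, 0.27 at Timm50, 0.56 and 0.64 at the Notch1 intron and promoter, 0.43 and 0.75 at the Notch2 promoter and intron, 0.38 at the Notch3 intergenic region, 0.79 at Dll1, 0.65 and 0.60 at the Jag1 intron and promoter, 0.78 at Hes1, 0.71 and 0.64 at the Hes5 promoter and the exonic region 23.2 kb past it, 0.77 at Lfng and 0.75 at Nrarp. Per kb they turned to -0.91 at the Notch1 and -0.88 at the Jag1 intergenic regions, -0.68 at Notch3, -0.54 and -0.60 at the Dll3 intron and promoter, and -1.03 downstream of Lfng. With 50% coverage in each library, Hes5 turned to 0.049 and Lfng to 0.032. For the first pair of scalings the median of all regions moved in the same direction as these turns (0.97 and -0.76). The cause of the turns was not tested.

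Leaving out a library turned the sign at 5 named regions: the values ran from -0.83 to 0.030 at the Notch1 promoter, from -0.44 to 0.33 at the Notch2 intron, from -0.37 to 0.25 at Hes1, from -0.56 to 0.049 at Lfng and from -0.14 to 0.59 at Dll3. The median promoter percentile by CPM was 90.3, moved to 45.4 per kb and to 84.1 within WT replicate 1, and stayed at 86.6 to 93.2 within the others. The median share of barcodes was 3.39% thinned and 8.23% unthinned. AGGTCA lay within 100 bp of the midpoint in 15.9% of all tested regions and in 20.5% of member regions. Precision is limited by 2 libraries a genotype and by depth in WT, with standard errors of 0.20 to 1.25 at the member regions and a median of 42 and 47 cut sites per tested region in WT against 126 and 139 in Fam5snv/snv.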
